A study of Homo sapiens with 13 samples.

Results

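The genes of the cleavage and polyadenylation specificity factor (CPSF) core and of nuclear poly(A) synthesis were examined in human HEK293 cells with wild-type or slow RNA polymerase II (Pol II). The 10 genes were chosen by name from the gene column of the isoform files. They are CPSF1, CPSF2, CPSF3, CPSF4, FIP1L1, WDR33, SYMPK, PAPOLA, PABPN1 and RBBP6. They are 10 of 14575 gene names with 3′ ends in the files, and they hold 304 of 211765 3′ end positions. All 10 had reads in all 9 libraries.

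HEK293 is a human embryonic kidney line. In the Flp-in T-REx derivatives used here, all cells carry a pcDNA5 plasmid with an α-amanitin resistant, Avitag-labelled Rpb1, the largest Pol II subunit, which is switched on by doxycycline. One line expresses wild-type Rpb1 (5 libraries) and the other expresses Rpb1 with the R749H substitution, which slows elongation (4 libraries). Both were given doxycycline at 2 µg/ml, for 24 hr per the labels. They were then given α-amanitin, which blocks the cells' own Pol II, at 2.5 µg/ml for 42 hr. Doxycycline was kept on during these 42 hr, per the study's methods. Each genotype is one cell line, so genotype and line cannot be told apart, and whether a line is a single clone is not given in the sources used here. Poly(A) RNA was measured by 3′ READS, which sequences the junction of the transcript and its poly(A) tail, so that each read marks one 3′ end at nucleotide resolution.

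Cleavage and polyadenylation of pre-mRNA is carried out by a large complex. CPSF4 and WDR33 contact the AAUAAA signal on a platform formed with CPSF1, CPSF3 is the endonuclease that cuts the RNA, CPSF2 is its inactive partner, and FIP1L1 links CPSF to poly(A) polymerase. SYMPK is a scaffold, RBBP6 is needed to activate cleavage, PAPOLA is the canonical nuclear poly(A) polymerase, and PABPN1 binds the growing tail and makes the polymerase processive. The mRNAs of these genes are themselves cleaved and polyadenylated by this machinery, and 3 of the genes (PAPOLA, WDR33 and RBBP6) also have 3′ ends that follow the stop codon of a shorter transcript and fall in introns of the full-length one.

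The 3′ ends on which the results turn are shown as the last 30 nt of genomic sequence up to the most used position, on the strand of the gene (GRCh37, the same assembly as hg19). Capitals mark the poly(A) signal hexamer. The search covered 40 nt before the end on the strand of the gene, first for AATAAA, then for ATTAAA, then for AGTAAA, then for TATAAA, then for CATAAA, then for GATAAA, then for AATATA and last for AATACA, and a hexamer may overlap another. The first 8 sequences are ends after the stop codon of the full-length protein, and the last 4 are ends in introns of the full-length transcript.
CPSF2, chr14:92630514-92630543: agtcaATTAAAcgtgtttactttataaatt
CPSF3, chr2:9613194-9613223: gttacctaaAATAAAatgcattcgtttctc
CPSF4, chr7:99054965-99054994: ttttatgaaatggATTAAAgcttgtttttt
FIP1L1, chr4:54328715-54328744: agaaaccAATAAAaagtcttgtgaaatgtt
SYMPK, chr19:46318708-46318737: cttaaaaagaAATAAAagatgtgaacttgg
PABPN1, chr14:23795338-23795367: tgtgtcatgAATAAAgttgtttttgaaaat
PAPOLA, chr14:97033423-97033452: aacacAATAAAaaaaaaacagcacaatctc
WDR33, chr2:128463501-128463530: tgtatgAATACAgaatgtgatttacgcaag
PAPOLA in an intron, chr14:96998038-96998067: ttaAATAAAatgaactttgcctAATAAAct
PAPOLA in an intron, chr14:96998033-96998062: gtgagttaAATAAAatgaactttgcctaat
WDR33 in an intron, chr2:128522042-128522071: tccaAATAAAgaattcagtctttaattatg
RBBP6 in an intron, chr16:24560692-24560721: gtttcttgcAATAAAaaatgtttggagtgt

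AATAAA preceded the ends of CPSF3, FIP1L1, SYMPK, PABPN1 and PAPOLA, and ATTAAA those of CPSF2 and CPSF4. The same search was made at the most used end of the 7875 genes that averaged 20 reads or more per library. Of these, 67.6% had AATAAA, 16.7% had ATTAAA instead and 5.94% had none of the 8 hexamers. The WDR33 end in the last exon had AATACA, which was the hexamer found for 1.09% of genes. Both intronic PAPOLA ends lie 5 nt apart and share one AATAAA. The downstream end of the pair has a second copy that begins 8 nt before the end, closer than the 17 to 27 nt of the other hexamers printed here.

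The wild-type libraries held between 2479851 and 10135014 reads within 5 kb downstream of a stop codon, and the R749H libraries between 3863468 and 6475987. R749H replicate 3 stood apart: 6.60% of its positions held only one read, while in the remaining 8 libraries this share was 30.05% to 36.2%. POLR2A, the gene of Rpb1, had 60.5 to 124.5 reads per M reads (RPM) in wild-type and 253 to 520 in R749H libraries, a log2 change of 2.12 (SE 0.23, adjusted p = 6.89e-06). These reads were assigned to POLR2A by 3′ ends within 5 kb downstream of a stop codon, and do not check which transgene was expressed. Of the HEK293 markers VIM, KRT8, KRT18 and INA had reads in all libraries, NEFM did not exceed 0.320 RPM and NEFL had none. VIM was lower in R749H libraries (log2 change −0.66, adjusted p = 0.0172 by limma). KRT8 (0.44), KRT18 (0.38) and INA (−0.33) were not called. ALB, HBB, PTPRC, CD3E, COL1A1 and PECAM1, which mark other cells, did not exceed 0.699 RPM in any library.

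The first question was how much mRNA of each gene was present. Levels are given as each gene's RPM, after scaling by the trimmed mean of M values (TMM). One read is one 3′ end, so the values need no correction for transcript length. Reads whose As the genome could encode were discarded, and so were ends more than 5 kb downstream of a stop codon. Such losses can differ between genes, and their part in the order of levels was not tested. CPSF1 had the highest level, at 410.3 ± 69.0 RPM in wild-type cells (SD, n = 5), and RBBP6 the lowest, at 3.78 ± 1.76. CPSF3 followed CPSF1 at 137 ± 32.9, with no overlap between the libraries of the 2 genes or between CPSF3 and the next gene. PABPN1 (52.8 ± 5.59) and CPSF2 (48.4 ± 11.0) overlapped each other. From CPSF4 (21.1 ± 2.19) through PAPOLA (15.1 ± 4.75), WDR33 (12.7 ± 3.03), FIP1L1 (7.67 ± 2.40) and SYMPK (4.47 ± 0.607) to RBBP6, each gene overlapped the next. The RPM values of these genes thus spanned a 108-fold range in wild-type cells, from RBBP6 to CPSF1.

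**Figure D1:**
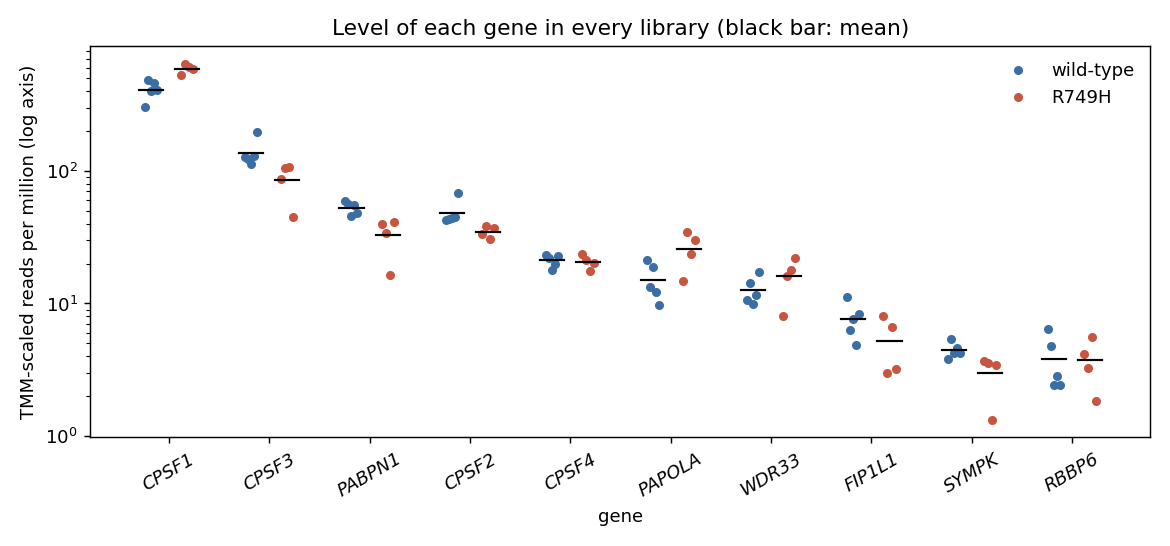
Level of the 10 genes in each library, as TMM-scaled RPM on a log axis, ordered by the wild-type mean; blue points are the 5 wild-type and red points the 4 R749H libraries, and black bars are means. CPSF1 sits at 302 or more in every library, and the levels of SYMPK and RBBP6 are the lowest in wild-type cells.

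The second question was whether these levels differed between slow and wild-type Pol II. In R749H cells CPSF1 rose 1.45-fold, and CPSF3 and PABPN1 fell, by 0.73 and 0.76 on the log2 scale. The other 7 genes did not pass the threshold. These are bulk libraries, in which fewer cells with a transcript and less of it per cell cannot be told apart. All 10 genes were among the 9495 tested with limma, and 1 was higher and 2 were lower at an adjusted p under 0.05. Of all genes tested, 11.3% were higher and 13.8% were lower, so the count among the 10 is near that of genes at large. The direction of the calls depended on the scaling: 1071 genes were higher and 1310 lower with TMM, and 447 higher and 2735 lower with the authors' scaling to a fixed number of poly(A) reads, which moved the median log2 change of all genes from −0.06 to −0.39. With that scaling 0 of the 10 genes were higher and 4 were lower (CPSF2, CPSF3, PABPN1 and SYMPK). The median log2 change was −0.24 over the 10 genes and −0.06 over all genes.

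CPSF1, the scaffold on which the signal-binding subunits sit, had 302, 481, 402, 458 and 408 RPM in the wild-type libraries 1 to 5. It had 527, 642, 603 and 590 in the R749H libraries 1 to 4. Every R749H library was above every wild-type library. The log2 change was 0.54 (SE 0.17, 95% interval 0.19 to 0.89, adjusted p = 0.0250). With the authors' scaling the change of CPSF1 was 0.20 and was not called (adjusted p = 0.321). Without R749H replicate 2 the change was 0.52 and was not called either (adjusted p = 0.0747).

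CPSF3, the endonuclease, had 127, 122, 113, 129 and 195 RPM in the wild-type libraries. The R749H libraries had 86.6, 105, 107 and 44.7. The groups did not overlap, wild-type replicate 5 was the highest and R749H replicate 4 the lowest. The log2 change was −0.73 (SE 0.24, 95% interval −1.22 to −0.23, adjusted p = 0.0327). The call was lost without wild-type replicate 4 (adjusted p = 0.0531), without wild-type replicate 5 (−0.60, adjusted p = 0.0651) and without R749H replicate 4 (−0.42, adjusted p = 0.152), and with no filter on low counts (adjusted p = 0.0530).

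PABPN1, which binds nascent poly(A), had 58.9, 56.0, 45.7, 55.5 and 48.3 RPM in the wild-type libraries. It had 39.8, 34.2, 16.5 and 40.8 in the R749H libraries, of which replicate 3 was the lowest. Again the groups did not overlap. The log2 change was −0.76 (SE 0.24, 95% interval −1.26 to −0.26, adjusted p = 0.0266). Without R749H replicate 3, the library with few single-read positions, it was −0.43 and was not called (adjusted p = 0.118). The call was also lost without wild-type replicate 2 (adjusted p = 0.0577), wild-type replicate 4 (adjusted p = 0.0559) or R749H replicate 2 (adjusted p = 0.0576), and with no filter on low counts (adjusted p = 0.0511). The readthrough gene BCL2L2-PABPN1 shares the 3′ end of PABPN1 and has no positions of its own in the files, so its transcripts are counted with PABPN1.

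PAPOLA, the poly(A) polymerase, was just outside the threshold. Its levels were 21.1, 13.4, 18.9, 12.2 and 9.79 RPM in wild-type and 14.8, 34.5, 23.7 and 30.2 in R749H libraries. The groups overlapped through R749H replicate 1. The log2 change was 0.75 (SE 0.28, 95% interval 0.17 to 1.32, adjusted p = 0.0532), and edgeR's quasi-likelihood test on recovered reads gave 0.78 (adjusted p = 0.0377). With the authors' scaling the change of PAPOLA was 0.41 (adjusted p = 0.280), and without R749H replicate 2 it was 0.61 (adjusted p = 0.170).

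For CPSF2, the inactive partner of the endonuclease, the 4 R749H libraries (30.9 to 38.1 RPM) were all below the 5 wild-type libraries (42.2 to 68.0), with a log2 change of −0.45 (SE 0.19, adjusted p = 0.0940). SYMPK did not overlap between groups either, at 3.84 to 5.43 in wild-type and 1.33 to 3.65 in R749H libraries, but rests on 5 to 51 reads per library (−0.59, SE 0.34, adjusted p = 0.211). Without R749H replicate 3 the change of SYMPK was −0.27 (adjusted p = 0.537). In all, every R749H library was above every wild-type library for 1 of the 10 genes and below for 4. The shares over all genes tested were 9.72% and 10.1%.

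FIP1L1 differed by −0.58 (SE 0.33, adjusted p = 0.211), with 11 to 53 reads per library. The signal-binding subunits WDR33 (0.26, SE 0.28, adjusted p = 0.527) and CPSF4 (−0.04, SE 0.20, adjusted p = 0.915) overlapped between groups, and WDR33 was at −0.07 with the authors' scaling. The 95% interval of CPSF4, −0.45 to 0.38, is narrower than that of RBBP6 (−0.82 to 0.79), whose change was −0.01 (SE 0.38, adjusted p = 0.984).

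**Figure D2:**
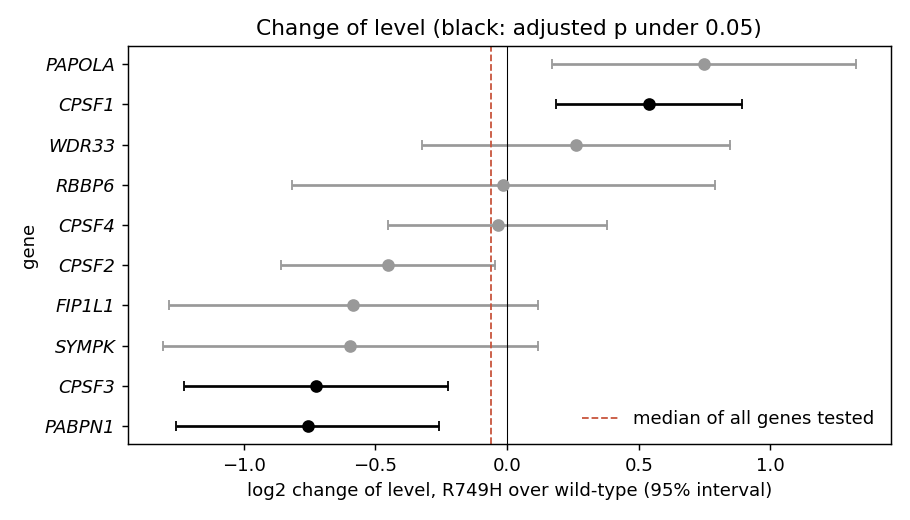
Log2 change of level in R749H over wild-type cells for the 10 genes, with 95% intervals from limma; black points passed the threshold, grey points did not, and the dashed line is the median of all genes tested (−0.06). CPSF1 lies at 0.54, CPSF3 at −0.73 and PABPN1 at −0.76.

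The chromosomal surroundings were compared because each genotype is one cell line. The genes within 5 Mb of CPSF1 had a median log2 change of 0.13 (56 genes), those near CPSF3 of −0.31 (18 genes) and those near PABPN1 of −0.11 (65 genes). Near RBBP6 the median was −0.47 (43 genes), whereas RBBP6 itself was at −0.01. Medians over whole chromosomes lay between −0.11 and 0.01. The part of these differences in the levels was not tested.

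The 3 genes whose log2 levels most resembled those of CPSF1 over the 9 libraries were HLA-E (Pearson r = 0.980), ILK (r = 0.976) and SBF1 (r = 0.972). These values are a description, since all 9 libraries share the division into 2 lines.

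A list of 27 other genes held cleavage and polyadenylation factors, poly(A) binding proteins, phosphatases, termination factors and paralogs such as INTS9. Of these, 24 had reads and 22 were tested, and 3 were higher and 2 lower in R749H cells. These counts are near the 11.3% higher and 13.8% lower of all genes tested. The list had a median log2 change of 0.08. The 3 that rose were NUDT21, the UGUA-binding subunit of cleavage factor I (1.21, SE 0.21, adjusted p = 0.000613), CSTF2, the RNA-binding subunit of the cleavage stimulation factor (1.05, SE 0.23, adjusted p = 0.00307), and CSTF3, its scaffold (1.01, SE 0.22, adjusted p = 0.00263). NUDT21 had 13.4 to 21.5 RPM in wild-type and 33.0 to 53.2 in R749H libraries. The other 2 cleavage stimulation factor genes of the list, CSTF1 (0.26, adjusted p = 0.545) and CSTF2T (0.05, adjusted p = 0.886), were not called.

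PPP1R10, a targeting subunit of protein phosphatase 1 in the CPSF-associated phosphatase module, fell by 1.29 on the log2 scale (SE 0.30, adjusted p = 0.00444), from 6.30 to 7.93 RPM in wild-type libraries to 1.84 to 3.65 in R749H libraries. PABPC4, a cytoplasmic poly(A) binding protein, fell by 0.67 (SE 0.20, adjusted p = 0.0180), with overlapping groups. PCF11, a termination factor, had the second largest decrease, −0.75, and was not called (SE 0.35, adjusted p = 0.120).

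The third question was where the transcripts ended. For CPSF1, 90.9% ± 0.50 of reads in wild-type (SD, n = 5) and 90.9% ± 0.69 in R749H libraries (SD, n = 4) ended at 1 nucleotide, 86 nt after the stop codon in the 3′ UTR. No other position exceeded 5% of that isoform. Over the 7875 genes the median share at the most used position was 58.3%, and 89.8% of genes were below CPSF1.

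CPSF3 lay toward the opposite end, with 24.0% of all its reads at the most used position, which exceeds 4.25% of genes. Its ends formed 1 cluster of 8 isoforms, 75 to 83 nt after the stop codon, with 96.5% ± 0.513 of wild-type reads. The isoform at 77 nt held 24.4% ± 0.60 in wild-type and 23.9% ± 4.52 in R749H libraries, and the one at 81 nt held 17.9% ± 1.54 and 16.9% ± 4.74. At these 2 isoforms the means of the lines differed by less than the SDs. At 75 nt the shares were 14.1% ± 1.90 and 16.1% ± 2.53. A further isoform at 92 nt, outside the cluster, held 1.75% ± 0.0949 and 2.35% ± 1.67. At both of the latter the means differed by more than the wild-type SD and less than the R749H SD. The share of reads in the cluster's downstream part had a log2 odds change of −0.01 (adjusted p = 0.985).

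**Figure D3:**
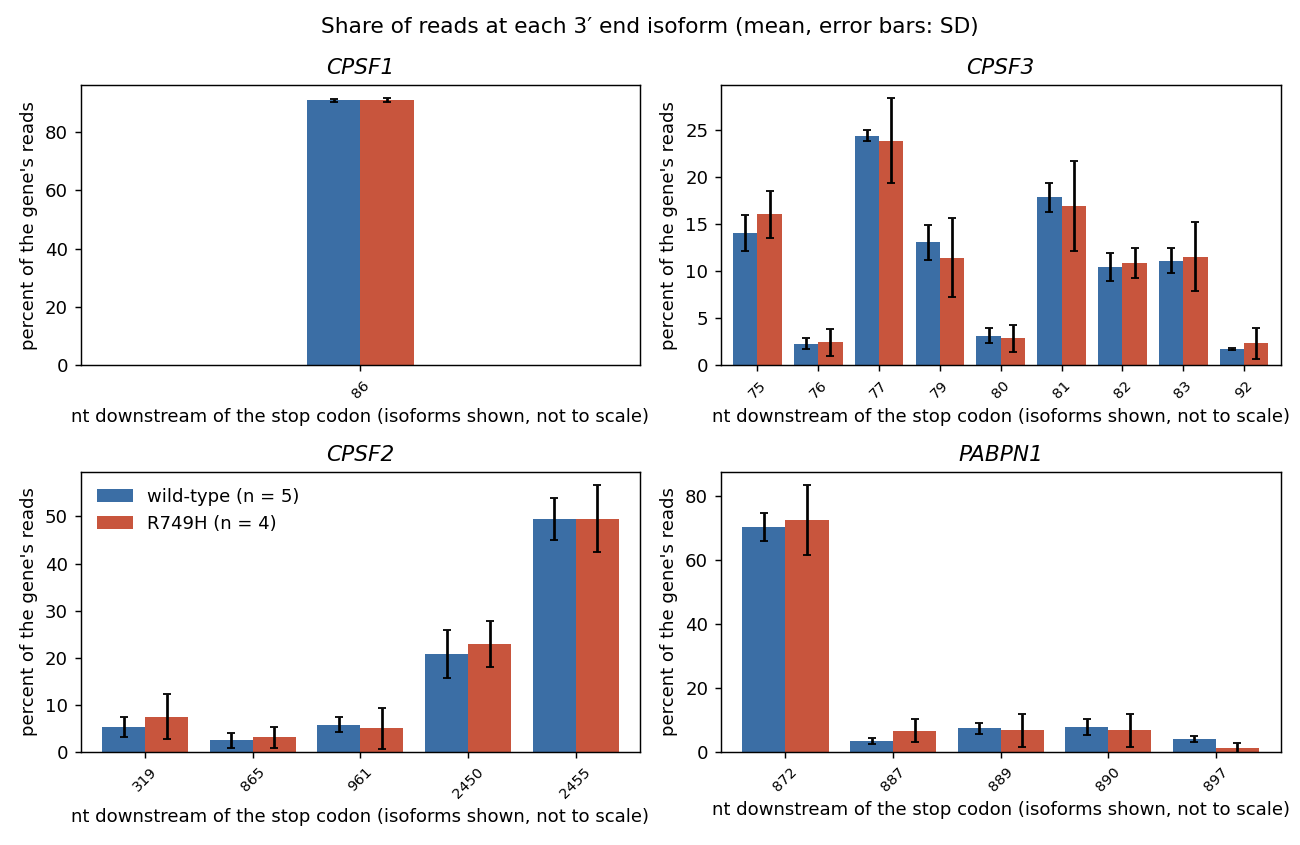
Share of each gene's reads at every 3′ end isoform above 5% of its maximal isoform, for CPSF1, CPSF3, CPSF2 and PABPN1; bars are means of 5 wild-type (blue) and 4 R749H (red) libraries, error bars are SD and the x axis gives nt downstream of the stop codon. Bars of the 2 lines overlap within their errors at the main isoforms, such as 86 nt in CPSF1 and 77 nt in CPSF3.

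CPSF2 had tandem ends in a long 3′ UTR, at 319, 961, 2450 and 2455 nt after the stop codon. The distal pair held 21.7% and 50.1% of the summed reads. CPSF4 ended mostly at 871 nt (72.9% ± 5.01 of wild-type and 66.4% ± 15.9 of R749H reads), with a proximal end at 391 nt (16.9% ± 4.38 and 21.2% ± 9.27). PABPN1 ended at 872 nt (70.2% ± 4.24 and 72.4% ± 10.9), with a second cluster whose most used position, at 889 nt, is outside the annotated PABPN1 transcripts. Transcripts of BCL2L2-PABPN1 were not checked for this position. FIP1L1 ended 3128 nt after its stop codon for 62.5% of its reads, and SYMPK at 110 nt in a cluster with 84.5%.

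None of the genes tested was called for an upstream or downstream shift of its 3′ ends. Usage of stop codons, for which CCDS58334.1 of PAPOLA was called, is given further below. Reads downstream of each gene's median position were compared as log2 odds for 9 of the 10 genes (RBBP6 had too few reads), and no gene passed the threshold. Where 1 end dominates, the median position is that end, as in CPSF1, CPSF2 and CPSF4. The test then compares only the reads past the main end, and not the main end with ends upstream of it. In wild-type libraries the reads past it were 4.32% for CPSF1 and 3.95% for CPSF4. Over all 7758 genes, 0% shifted downstream and 0.0387% upstream. Downstream reads of CPSF2 were 7.09% ± 3.57 in wild-type and 3.30% ± 1.90 in R749H libraries, a log2 odds change of −1.11 (SE 0.47, unadjusted p = 0.0380, adjusted p = 0.501). This change rests on few reads, down to 1.25% of 160 in R749H replicate 4. For PAPOLA the share was 60.3% ± 8.20 and 41.8% ± 15.5 (−1.13, SE 0.47, unadjusted p = 0.0377, adjusted p = 0.50). When the 3′ ends were divided at the midpoint instead, the change was −0.16 for CPSF2 (adjusted p = 0.920), −0.38 for CPSF4 (adjusted p = 0.817) and −0.53 for PAPOLA (adjusted p = 0.730).

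Use of single poly(A) sites was tested for 21 sites in 7 of the 10 genes, with no site of CPSF1, CPSF3 or RBBP6, and none was called, against 0.0679% of all sites higher and 0.0453% lower. The smallest p was that of the last-exon site of WDR33, 396 nt after the stop codon. It held 3.03%, 8.82%, 14.8%, 13.3% and 8.08% of WDR33 reads in wild-type and 19.6%, 23.7%, 28.4% and 17.9% in R749H libraries. The groups did not overlap, on 1 to 19 reads per library, and the log2 odds change was 1.53 (unadjusted p = 0.0104, adjusted p = 0.299). The share of all sites without overlap was not counted. Within clusters, 4 clusters of these genes were tested for a shift and none was called, against 0% higher and 0.0868% lower over all clusters.

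The ends of PAPOLA fall after 3 stop codons, and these were compared after the data had been seen. Reads after the stop codon of CCDS58335.1 most often end 34 nt downstream of it, in the 3′ UTR of a short transcript and in an intron of the full-length transcript. They numbered 18, 29, 42, 59 and 26 in wild-type and 45, 83, 35 and 98 in R749H libraries. Scaled, these were 5.76, 6.05, 6.85, 5.37 and 4.55 RPM in the wild-type libraries. The R749H libraries had 7.83, 22.7, 9.32 and 22.6 RPM. Every R749H library was above every wild-type library, and replicates 2 and 4 were highest. How often the groups separate in this way over all stop codons was not counted. The log2 change was 1.25 (SE 0.32, 95% interval 0.58 to 1.91, adjusted p = 0.00856), in a test over 9681 stop codons of which 11.3% were higher and 13.8% lower.

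The full-length PAPOLA transcript, whose ends follow CCDS9946.1, most often by 2065 nt in the last exon, had 7.72 ± 4.09 RPM (SD, n = 5) in the wild-type line, against 9.69 ± 3.61 (SD, n = 4) in the R749H line (log2 change 0.40, SE 0.36, adjusted p = 0.438). Without wild-type replicate 5 this change was 0.14, and without wild-type replicate 1 it was 0.63 (adjusted p = 0.789 and 0.188). As a share of PAPOLA reads, the CCDS58335.1 ends were 39.9% ± 8.09 in wild-type and 58.2% ± 15.5 in R749H cells. The groups overlapped through R749H replicate 3, at 39.3%, and the change of log2 odds, 1.12 (SE 0.51), was not called (adjusted p = 0.173).

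The third PAPOLA stop codon, of CCDS58334.1, is followed by ends in another intron of the full-length transcript, most often 23 nt downstream. These took 9.09%, 10.9%, 9.48%, 7.46% and 21.4% of PAPOLA reads in wild-type libraries. In R749H libraries they took 1.18%, 3.17%, 0% and 2.29%, and the 0 of 89 reads in replicate 3 allow a share of up to 3.37%. The groups did not overlap, and the share of all stop codons without overlap was not counted. The change of log2 odds was −2.97 (SE 0.62, adjusted p = 0.0171), among 607 stop codons of which 5.44% were higher and 5.6% lower. It rests on 6 to 12 reads in wild-type and 0 to 4 in R749H libraries, and without wild-type replicate 2 it was not called (adjusted p = 0.05145). The levels of these ends overlapped between groups, from 0.911 to 2.10 RPM with wild-type Rpb1 and from 0 to 1.10 with R749H Rpb1.

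**Figure D4:**
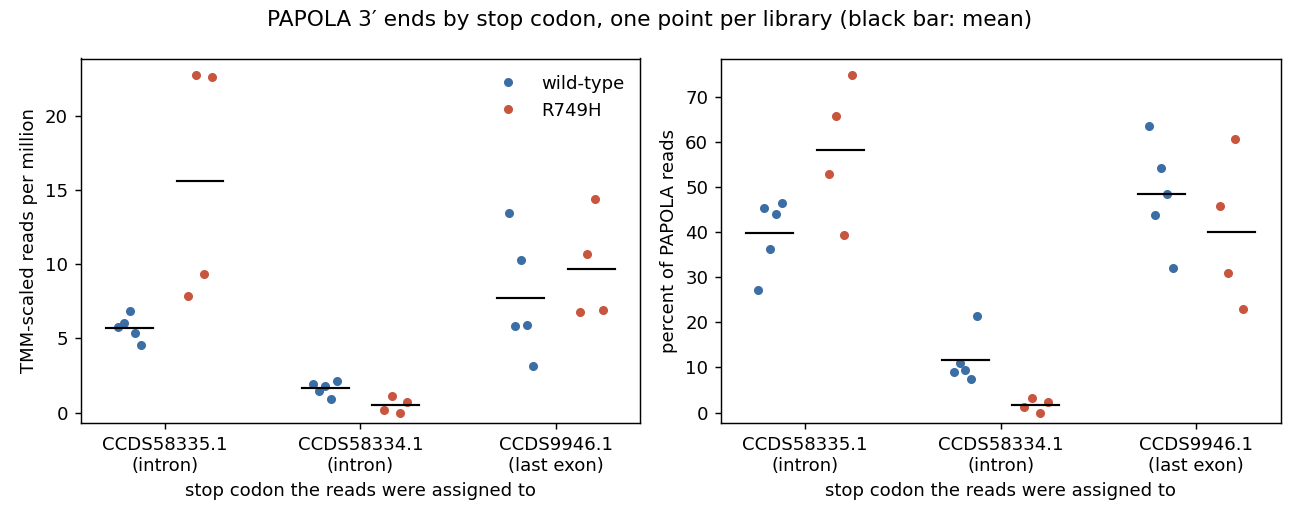
PAPOLA 3′ ends by the stop codon they follow, as TMM-scaled RPM (left) and as percent of PAPOLA reads (right), with a point per library and black bars at the means. Ends after CCDS58335.1 lie at 4.55 to 6.85 RPM in wild-type and 7.83 to 22.7 in R749H libraries, and those after CCDS58334.1 hold 7.46% to 21.4% and 0% to 3.17% of reads.

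WDR33 and RBBP6 have the same kind of structure. The WDR33 ends after CCDS46407.1 held 53.2% ± 6.62 of its reads in wild-type and 47.0% ± 15.8 in R749H cells (log2 odds change −0.35, adjusted p = 0.713). The most used of them lies 5 nt after the stop codon, in an intron of the full-length transcript, and 2 of their sites, 1351 and 1359 nt after it, lie within a coding exon of that transcript. WDR33 ends were the most dispersed of the 10 genes, with 12.2% of reads at the most used position. The short RBBP6 transcript of CCDS45444.1, which ends 365 nt after its stop codon, had 41.4% ± 25.6 of RBBP6 reads in wild-type and 29.5% ± 13.4 in R749H cells. RBBP6 had 8 to 31 reads per library, and its shares were not tested in the main fit. In the alternative that kept genes averaging at least 5 reads they were tested and not called.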

How the data were processed

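Poly(A) RNA of the 5 wild-type and 4 R749H libraries was measured by 3′ READS. The authors deposited a signal per 3′ end isoform, which is its read number after mapping to hg19, selection of reads with non-templated As, assignment to CCDS stop codons within 5 kb upstream and scaling to 7 M poly(A) reads per replicate. Bowtie2 2.3.2 is named in the submitters' processing notes, and the study's methods name bowtie. Dividing each library by its smallest step recovered whole reads for at least 99.997% of values (within 0.1 read), and their sums equalled the pooled values at all 134734 R749H and 176030 wild-type positions. Reads were summed per gene.

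Levels (log2 of reads per M reads, RPM, TMM factors, prior count of 2, filterByExpr) and log2 odds of downstream reads, sites and stop codons (prior count of 0.5, genes averaging 20 reads or more) were fitted with limma 3.58.1 on all features, with Benjamini-Hochberg adjustment and a threshold of 0.05. edgeR 4.0.16 and DESeq2 1.42.0 were run on the recovered reads as alternatives. A site is a run of isoforms, each above 5% of the gene's maximal isoform and no more than 4 nt from the next. Scripts were tested on simulated data. Sites were placed on GENCODE v44lift37 and GRCh37. Intervals of counts and floors (3 counts) cover counting error only. The study calls the libraries biological replicates and the labels do not describe separate cultures, so p-values measure the spread between these libraries. The labels give a doxycycline time of 24 hr, and the study's methods a shorter one.

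The genes, lists and tests were chosen with earlier results of these data known, and the tests per stop codon after the data were seen. Named were the 10 genes, with sites of at least 5% of a gene's reads and each stop codon, POLR2A and BCL2L2-PABPN1. Also named were the 3 genes most correlated with the gene of smallest p. From the list of 27 other genes, those past the threshold and the 2 of largest change in each direction were named. The 4 eNETseq libraries were not analysed here, and the sequence of one 3′ end is not reported here.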

Additional observations from a re-analysis of the deposited data

Results flagged for a closer look

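Of 36 sets of 4 or 5 libraries (levels and stop codon shares of these genes), 6 held a library whose distance from its nearest neighbour was large for the range of the set by Dixon's criterion, which chance meets in about 1 of 20 sets. Wild-type replicate 5 was high for CPSF2, at 68.03 RPM against 42.2 to 44.5 in the other wild-type libraries. It was also high for CPSF3, at 195.0 against 113 to 129, and for the share of PAPOLA reads after CCDS58334.1, at 21.43% against 7.46% to 10.9%. R749H replicate 3, the library with few single-read positions, was low for SYMPK, at 1.331 RPM against 3.46 to 3.65. For RBBP6 it had 90.48% of reads after CCDS10621.1, against 62.5% to 66.7%, and 9.524% after CCDS45444.1, against 33.3% to 37.5%. The last 2 are complements of one share, on 21 reads. The part of read depth or library complexity in these values was not tested.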

How the results depend on the processing

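With TMM factors and limma 3 of the 10 genes were called for level, 1 with no filter on low counts and 1 to 4 as each library was left out. The number higher was 1, with 2 under RLE factors, edgeR or DESeq2, 0 under the authors' scaling and 0 to 2 as each library was left out. The number lower was 2, with 4 under the authors' scaling, 0 with no filter and 0 to 2 as each library was left out. Replicate numbers did not pair the libraries (correlations of same-numbered deviations −0.08 to 0.05), and a fit with a replicate block on replicates 1 to 4 also leaves out wild-type replicate 5. There the number lower was 1, with CPSF3 at −0.59 (adjusted p = 0.0525), and without that library and with no block CPSF3 was at −0.60 (adjusted p = 0.0651). The log2 odds of the CPSF4 shift were −0.18 with the replicate block and also without wild-type replicate 5 and no block. No gene, site or cluster was called for shift or site usage under any of the alternatives run. Without each library in turn 0 to 1 stop codons were called for usage, and the level of PAPOLA ends after CCDS58335.1 was called under all 15 alternatives (0.92 to 1.53, adjusted p 0.000332 to 0.0456). Some changes that were not called turned sign. RBBP6 level was 0.0302 with edgeR and 0.0361 with DESeq2, and WDR33 level and WDR33 CCDS46407.1 level were −0.0724 and −0.27 with the authors' scaling. With division at the midpoint the shifts of CPSF3 and CPSF4 were 0.0696 and −0.38. As each library was left out, levels ran from −0.0972 to 0.0631 (CPSF4), −0.20 to 0.27 (RBBP6) and −0.30 to 0.49 (WDR33 CCDS46407.1), shifts from −0.0208 to 0.0993 (CPSF1), −0.0702 to 0.11 (CPSF3), −0.26 to 0.48 (CPSF4), −1.37 to 0.23 (FIP1L1) and −0.42 to 0.19 (PABPN1), and WDR33 CCDS42746.1 usage from −1.46 to 0.32. The cause of these differences was not tested. No 3′ end position was assigned to more than one gene, so leaving such positions out gave no other value. FIP1L1, SYMPK and RBBP6 had at most 53 reads per library, which limits what their intervals can show.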
